A study of Rattus norvegicus with 7 samples.

Results

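The proteasome genes were taken from the single deposited comparison as every gene whose symbol begins with Psm, a letter from a to g and a number, which gave 47 of 14702 measured genes. No symbol was repeated among them. Of the 47, 45 encode subunits, assembly chaperones or regulators of the proteasome, and 2, Psmc3ip and Psme3ip1, encode proteins named after a subunit they bind. RNA was sequenced from the thyroarytenoid muscle in the vocal fold of 7 female rats of the Long Evans strain, all 8 months old. Of these, 4 were wild type (WT) and 3 carried the Pink1-/- genotype, and each library carried the number of a separate rat. The labels name no other allele or treatment, and do not give how the Pink1 allele was made. The whole muscle was extracted, so each library held RNA of every cell type in it. The comparison asks how the loss of Pink1, a kinase that marks damaged mitochondria, changes expression in a muscle of the larynx.

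The 26S proteasome is the protease that degrades ubiquitin-tagged proteins in the cytosol and nucleus. Its barrel-shaped 20S core is built of rings of alpha subunits, which gate entry, and rings of beta subunits, of which Psmb5, Psmb6 and Psmb7 carry the proteolytic sites. The 19S cap, made of ATPase and non-ATPase subunits, binds and unfolds the substrates. Interferon induces the replacement of the catalytic subunits by Psmb8, Psmb9 and Psmb10 in the immunoproteasome. In skeletal muscle, proteasomal degradation removes myofibrillar proteins during atrophy, and in the mitophagy pathway proteasomes remove ubiquitin-tagged proteins of the outer mitochondrial membrane.

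All 31 constitutive subunits of the 26S particle had fold changes above 0 in Pink1-/- relative to WT muscle, and no proteasome gene passed the test. Their median log2 fold change was 0.30, which is 1.23-fold, and the values ran from 0.12 for Psmb3 to 0.56 for Psmb5 per the authors' deposited table. The immunoproteasome genes Psmb8 and Psmb9 and the interferon-inducible activators Psme1 and Psme2 stood below 0, and the third immunoproteasome gene, Psmb10, stood at 0.43, per the authors' deposited table. Over all 47 genes, 42 were above 0 and the median log2 fold change was 0.27. For comparison, 48.0% of all genes were above 0, with a median of -0.02. Among the 3790 other genes whose abundance lay in the range of the constitutive subunits, 55.0% were above 0, with a median of 0.04.

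Of the 47 genes, 0 had an adjusted p under 0.05 in the authors' edgeR likelihood ratio test, against 3.05% of all genes. At an unadjusted p under 0.05, 6 of the 47 were higher and 0 lower, against 9.04% and 7.99% of all genes. The 6 make up 12.8% of the members. Of the 31 constitutive subunits 5 were higher at that p, or 16.1%, against 14.9% of the other genes in their abundance range, so the share of constitutive subunits was near that background. The median likelihood ratio of all genes was 1.96 times that of a chi-square distribution, and with every ratio divided by this factor the count of 6 became 0. The 6 genes were Psmb5, Psmd8, Psmd3, Psmg3, Psma7 and Psmb6.

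The size of the differences was small against their errors. The standard error (SE) implied for a log2 fold change by its deposited likelihood ratio had a median of 0.22 over the constitutive subunits. The SD of the 31 fold changes around each other was 0.11, less than the error of a single one. At the SEs of all 47 genes, a log2 fold change from 0.63 for Psmb2 to 1.18 for Psmb9 would have been needed to pass the adjusted threshold, and at most 0.81, for Psmd2, among the constitutive subunits. The median of that limit over the 47 was 0.70, or 1.63-fold. Differences of the observed size were thus not detectable gene by gene, and values per rat were not analysed here.

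**Figure D1:**
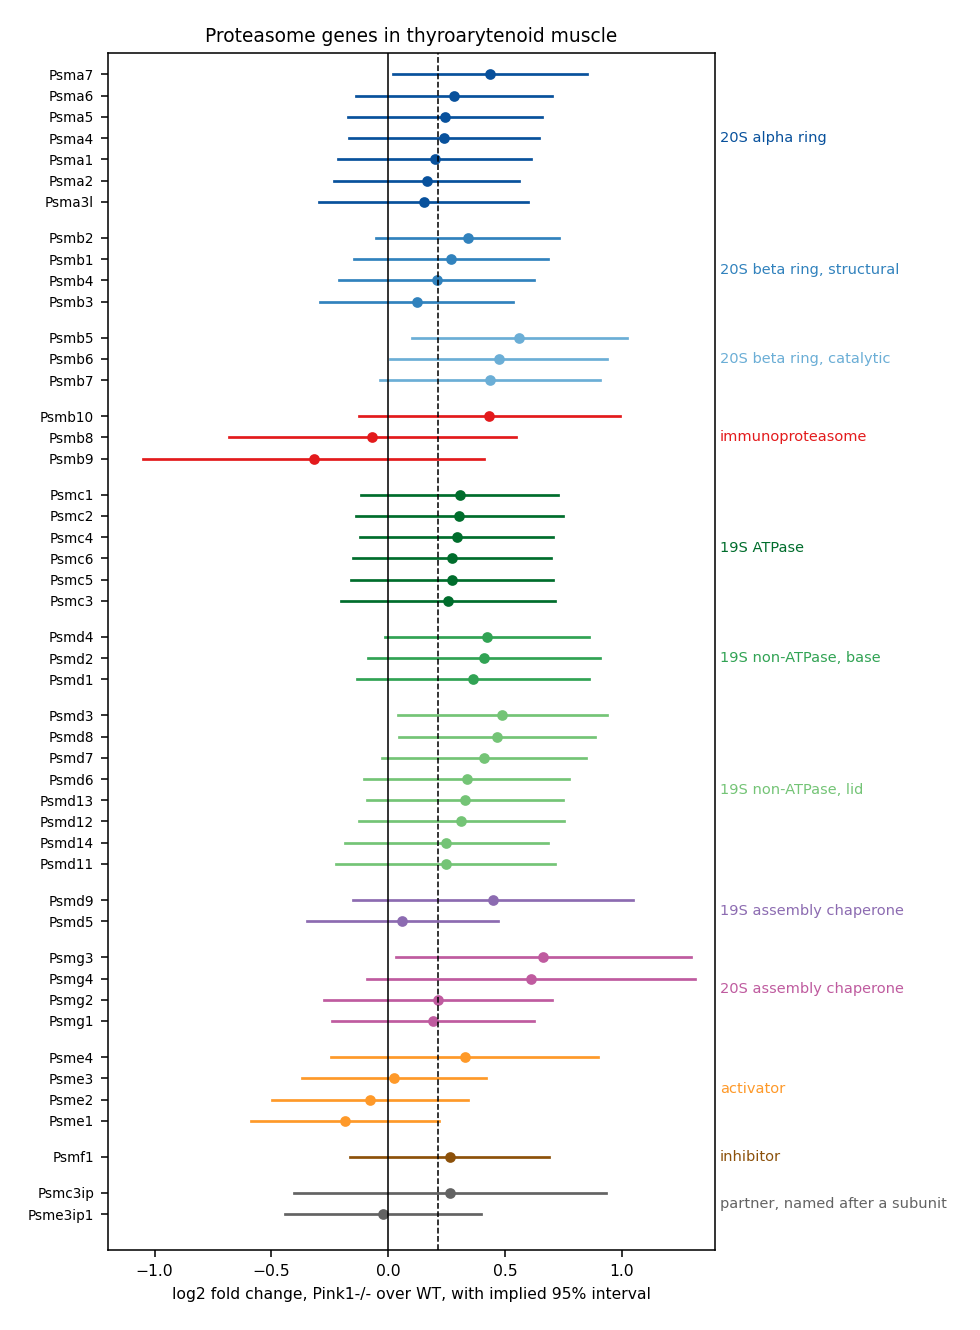
Log2 fold change of Pink1-/- over WT for the 47 proteasome genes, grouped by class, with points at the deposited value and lines for its approximate 95% interval, from the likelihood ratio. The solid line marks 0 and the dashed line the 0.21 that becomes 0 when summed CPM is made equal; all 31 constitutive subunits lie to the right of the solid line, and 26 to the right of the dashed one.

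Within the 20S core, all 14 constitutive genes were above 0, with a median log2 fold change of 0.26. The catalytic subunits Psmb5 and Psmb6 had the largest values of the 14. Psmb5, the chymotrypsin-like subunit, stood at 0.56 on the log2 scale (adjusted p 0.177) per the authors' deposited table. Implied levels of Psmb5 were 47.5 CPM in WT libraries and 70.1 CPM in those of Pink1-/- rats, and the 95% interval of the log2 fold change ran from 0.10 to 1.02. Psmb6, the caspase-like subunit, stood at 0.47 (adjusted p 0.283) per the authors' deposited table, and its implied levels were 52.2 CPM and 72.4 CPM. Psmb7, the trypsin-like subunit, stood at 0.43 (adjusted p 0.347) per the authors' deposited table, and its interval from -0.04 to 0.90 held 0. The values of the 3 catalytic genes lay closer to each other than their SEs, whose median was 0.24.

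The structural subunits of the beta ring had a median of 0.24 over 4 genes. Psmb2 was the highest of them at 0.34 (adjusted p 0.389) and Psmb3 the lowest at 0.12 (adjusted p 0.829) per the authors' deposited table. Psmb3 is also the member with the most copies, 10 pseudogenes or like genes named after it in RefSeq, so its reads could have been split. The alpha ring had a median of 0.24 over 7 genes and ran from 0.15 for Psma3l to 0.43 for Psma7 per the authors' deposited table. Psma7 was the only alpha gene with an unadjusted p under 0.05, at 0.0399 (adjusted 0.264). RefSeq lists Psma3l as an older name of Psma3, and Psma3 itself was not found among the measured genes. Whether the catalytic genes differ from the other 11 genes of the core was not tested, since that needs values per rat.

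The 19S cap showed the same direction in every measured gene. The 6 ATPases, the ring that unfolds and threads substrates, had nearly identical fold changes, from 0.26 for Psmc3 to 0.31 for Psmc1 per the authors' deposited table, an SD of 0.02 against a median SE of 0.22. Their adjusted p-values, per the authors' deposited table, ran from 0.494 to 0.636. In implied levels, Psmc1 went from 92.4 CPM in WT to 114 CPM in Pink1-/-, and Psmc3 from 62.0 CPM to 74.1 CPM. The 11 non-ATPase subunits had a median of 0.36. The base subunits Psmd4, a ubiquitin receptor, Psmd2 and Psmd1, both large scaffold proteins, stood at 0.42, 0.41 and 0.36 per the authors' deposited table. Among the 8 lid subunits Psmd3 and Psmd8, both structural, had the larger values, 0.49 and 0.46, with adjusted p-values of 0.241 and 0.232 per the authors' deposited table. Their intervals ran from 0.04 to 0.94 and from 0.04 to 0.88. Psmd14, the deubiquitinase that removes the ubiquitin chain before degradation, stood at 0.25, and Psmd11, which ties the lid to the core, at 0.25 per the authors' deposited table.

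**Figure D2:**
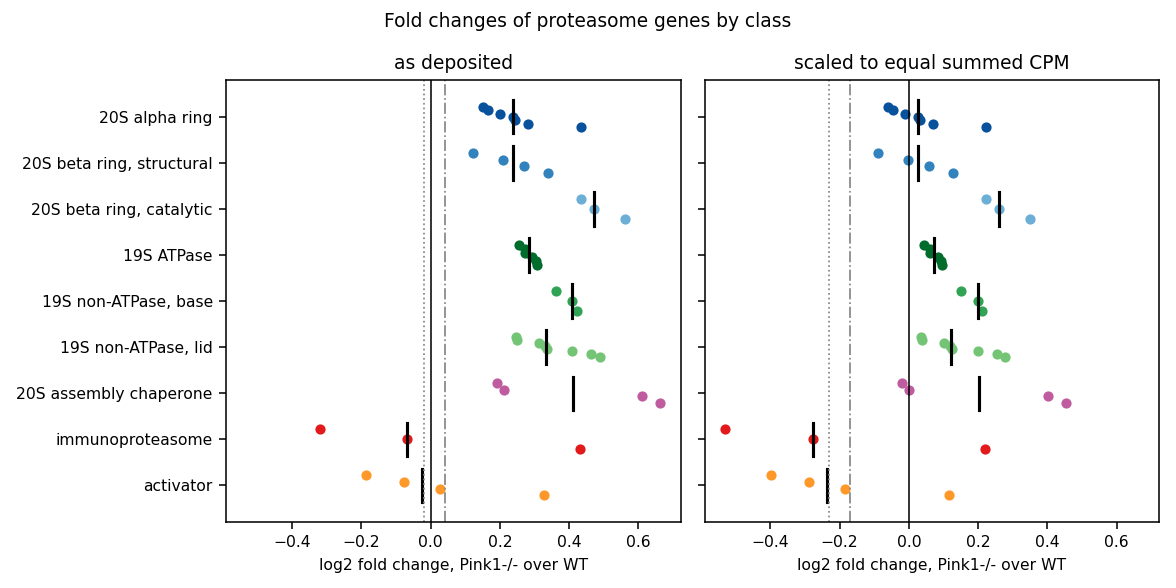
Log2 fold change of Pink1-/- over WT for each gene of 9 classes (points) with the class median (black bar), as deposited on the left and after scaling to equal summed CPM on the right. The grey dotted line marks the median of all genes and the grey dash-dotted line that of genes of like abundance; the medians of the 6 constitutive classes run from 0.24 to 0.47 as deposited and from 0.03 to 0.26 after scaling, and those of the immunoproteasome and the activators lie below 0 in both.

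The immunoproteasome genes did not share one direction. Psmb8 stood at -0.07 (adjusted p 0.948) and Psmb9 at -0.32 (adjusted p 0.726) per the authors' deposited table. Psmb10 stood at 0.43 (adjusted p 0.455) per the authors' deposited table, close to its constitutive counterpart Psmb7. Implied levels of Psmb8 were 11.7 CPM in WT and 11.2 CPM in Pink1-/-, those of Psmb9 5.77 CPM and 4.62 CPM, and those of Psmb10 6.55 CPM and 8.83 CPM. These genes were measured less precisely than the constitutive ones. The interval of Psmb9 ran from -1.05 to 0.41 and that of Psmb8 from -0.68 to 0.55, so both held 0 and also the constitutive median of 0.30. The counterparts compared side by side were 0.56 for Psmb5 and -0.07 for Psmb8, 0.47 for Psmb6 and -0.32 for Psmb9, and 0.43 for both Psmb7 and Psmb10, and none of the 3 differences was tested.

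The activators divided in a like way. Psme1 and Psme2, which form the interferon-inducible ring that opens the core, stood at -0.19 and -0.08 with adjusted p-values of 0.706 and 0.904 per the authors' deposited table. Psme3, the nuclear relative of both, stood at 0.03 (adjusted p 0.968) per the authors' deposited table. Psme4, a large single-chain activator known for its role in sperm development, stood at 0.33 (adjusted p 0.621) per the authors' deposited table, with implied levels of 351 CPM in WT and 441 CPM in Pink1-/-. The interval of Psme1 ran from -0.59 to 0.22, below the 0.30 median of the constitutive subunits, and that of Psme2 from -0.50 to 0.34, which holds it. Neither interval was widened for the inflation of the likelihood ratios, 1.96. The median comes from the same libraries and has an error of its own. Whether Psme1 or Psme2 differs from the constitutive subunits was not tested.

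Psmb8, Psmb9, Psme1 and Psme2 were set beside other genes of class I antigen loading and the interferon response. Without the proteasome genes, 22 of the 23 listed genes were measured, 4 were above 0 and 18 below, the median log2 fold change was -0.24, and 0 were called, with 1 at an unadjusted p under 0.05. That gene was Irgm, an interferon-induced GTPase, at -0.65 (adjusted p 0.238), followed by Pdia3, of the peptide-loading complex, at -0.54 with 0.364 per the authors' deposited table. By RefSeq gene order Psmb8 and Psmb9 lie on either side of Tap1, which encodes a subunit of the peptide transporter, and Tap2, of the other subunit, lies next to Psmb8. Tap1 stood at -0.57 (adjusted p 0.413) and Tap2 at -0.13 with 0.867 per the authors' deposited table. On the far side of Psmb9, RT1-DMb stood at 0.44 (adjusted p 0.702) and RT1-DMa, the gene after it, at 0.55 (adjusted p 0.463) per the authors' deposited table, both of class II antigen loading. Beyond Tap2, on the far side of Psmb8, RT1-DOb stood at -0.68 (adjusted p 0.550) per the authors' deposited table. The genes around Psmb8 and Psmb9 thus lay on both sides of 0 and none of those named was called. Of 14 measured leukocyte markers, 13 were above 0 with a median of 0.20 and 0 were called, and their implied levels summed to 452 CPM in WT and 523 CPM in Pink1-/-. The lymphocyte markers Cd3e, Cd3g, Cd8a and Cd79a were not found among the measured genes. The part of either list in the values of Psmb8 and Psmb9 was not tested.

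Promoter sequences of Psmb8, Psmb10 and Psme2, the interferon-inducible members with a match, are shown because interferon-inducible genes are known to carry the response element with the core TTTCNNTTT. RefSeq promoters of build GRCr8, from 250 bases before to 50 after the start, matched 43 of the 47 genes, all but Psma7, Psmd6, Psmd12 and Psmd14. On either strand the core was found in 10 of the 43 promoters, Psma2, Psma4, Psmb3, Psmb4, Psmb8, Psmb10, Psmd7, Psmd9, Psme2 and Psmg4, against 11.5% of all 27457 promoters and 7.64% of those of measured genes. The sequences below span 140 bases before to 10 after the start, with the core in capitals, read as AAANNGAAA where it lies on the other strand.
Psmb8 promoter, chr20:4657022-4657171, minus strand: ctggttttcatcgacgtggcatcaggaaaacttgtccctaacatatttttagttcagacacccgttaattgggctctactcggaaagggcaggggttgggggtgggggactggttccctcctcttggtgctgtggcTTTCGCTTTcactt
Psmb10 promoter, chr19:50743283-50743432, minus strand: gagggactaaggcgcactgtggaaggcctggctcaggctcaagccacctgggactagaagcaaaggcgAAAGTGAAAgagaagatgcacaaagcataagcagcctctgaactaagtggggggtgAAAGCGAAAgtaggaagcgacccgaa
Psme2 promoter, chr15:33052742-33052891, minus strand: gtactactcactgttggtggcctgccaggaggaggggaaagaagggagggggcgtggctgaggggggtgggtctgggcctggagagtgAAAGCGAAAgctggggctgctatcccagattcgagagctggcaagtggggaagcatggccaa
Psmb10, with 2 matches, had a fold change above 0, and Psmb8 and Psme2, with 1 each, had values below 0. No match was found in the windows of Psmb9 and Psme1, which says only that these letters are not there. The related element TTCNNNGAA occurred in 4 of the 43, Psmb8, Psmc6, Psmd3 and Psmd7, against 8.68% of all promoters and 6.71% of those of measured genes. Both of these motifs were added after the values were seen.

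Constitutive proteasome genes are known in other mammals to be induced together by Nfe2l1 through antioxidant response elements, whose core is TGACNNNGC, so that motif was searched on both strands in the same windows. It was found in 8 of the 43 promoters, or 18.6%, against 12.2% of all promoters and 14.7% of those of measured genes. The 8 were Psma3l, Psmb2, Psmb5, Psmb6, Psmd1, Psmd3, Psmd9 and Psme4. Of the 6 genes with an unadjusted p under 0.05, Psmb5, Psmb6 and Psmd3 held the core, Psmd8 and Psmg3 did not, and Psma7 had no promoter to search. Psma3l, which also held it, had the lowest fold change of the alpha ring, 0.15 per the authors' deposited table. Whether the core goes with the fold change was not tested. Of the catalytic genes, Psmb7 was searched and held no match. Psmb5 and Psmb6 are shown with Psmb2, the structural beta subunit of the largest fold change, over the same span and with the core in capitals.
Psmb5 promoter, chr15:32047370-32047519, minus strand: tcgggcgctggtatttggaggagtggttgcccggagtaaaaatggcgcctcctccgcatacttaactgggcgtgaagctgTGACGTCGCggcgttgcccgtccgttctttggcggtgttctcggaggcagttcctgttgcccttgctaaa
Psmb6 promoter, chr10:55737748-55737897, plus strand: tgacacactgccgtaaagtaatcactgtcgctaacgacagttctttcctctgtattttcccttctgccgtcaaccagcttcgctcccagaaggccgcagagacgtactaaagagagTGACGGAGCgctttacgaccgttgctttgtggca
Psmb2 promoter, chr5:144254918-144255067, plus strand: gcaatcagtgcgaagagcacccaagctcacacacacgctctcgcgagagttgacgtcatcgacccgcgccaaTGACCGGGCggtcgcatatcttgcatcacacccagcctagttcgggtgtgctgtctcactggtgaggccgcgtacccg
In Psmb5 the core begins 60 bases before the start, in Psmb6 24 and in Psmb2 68. CCAAT, on either strand, was found in 22 of the 43 promoters against 37.7% of all and 37.3% of those of measured genes, and TATAAA in 4, which is 9.30%, against 14.3% and 7.12%. These matches are descriptions of the sequence, not of binding.

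Assembly chaperones included the largest fold change of all 47 genes. Psmg3, which with Psmg4 helps to order the alpha ring, stood at 0.66 (adjusted p 0.262), and Psmg4 at 0.61 with 0.385 per the authors' deposited table. Both were weakly expressed, at an implied 9.16 CPM in WT and 14.5 CPM in Pink1-/- for Psmg3 and at 3.20 CPM and 4.90 CPM for Psmg4, and their SEs of 0.32 and 0.36 were above the median. Psmg1 and Psmg2, the other chaperone pair of the alpha ring, stood at 0.19 and 0.21 per the authors' deposited table. Of the chaperones that assemble the ATPase ring, Psmd9 stood at 0.45 and Psmd5 at 0.06 with adjusted p-values of 0.474 and 0.927 per the authors' deposited table. Psmd10 of the same group, and the tissue-specific core subunits Psma8 and Psmb11, were not found among the measured genes. Psmf1, a regulator named for its inhibition of the core in vitro, stood at 0.26 (adjusted p 0.587) per the authors' deposited table. The genes that are no subunit, Psmc3ip, of meiotic recombination, and Psme3ip1 stood at 0.26 and -0.02 per the authors' deposited table.

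**Figure D3:**
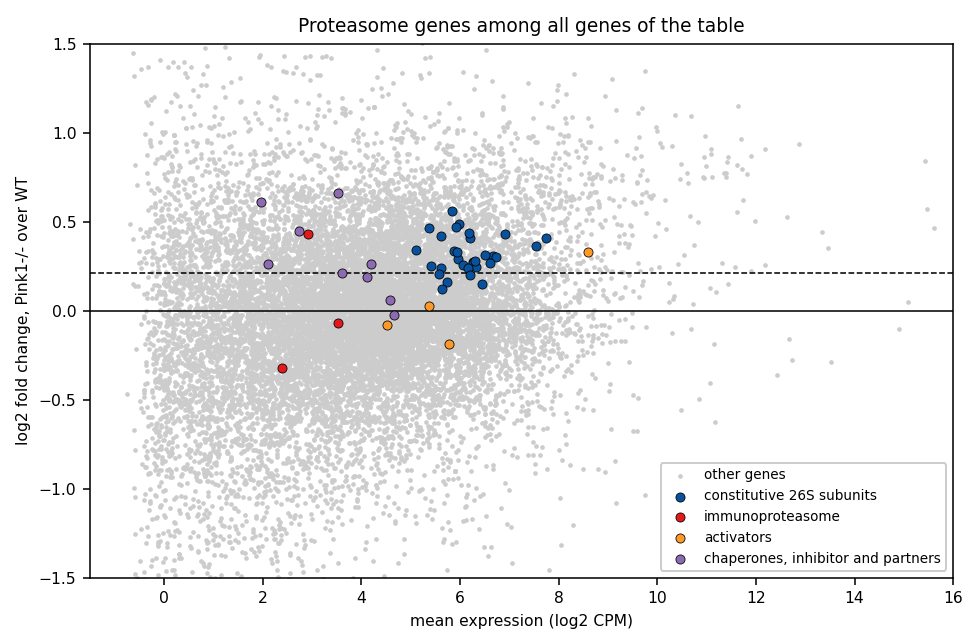
Log2 fold change of Pink1-/- over WT (vertical) against mean expression in log2 CPM (horizontal) for all 14702 genes, with proteasome genes in colour; 399 genes beyond 1.5 in either direction are outside the plotted range. The constitutive subunits lie between 5.12 and 7.75 log2 CPM and between 0.12 and 0.56 on the vertical axis, while the immunoproteasome genes lie between 2.40 and 3.52 log2 CPM.

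Fold change did not follow abundance within the complex. Over the 31 constitutive genes, which come from the same libraries, Pearson's r between log2 fold change and mean log2 CPM was 0.09 and Spearman's rho 0.05, a description across genes only. CPM is not corrected for transcript length, so the levels of different subunits were not compared with each other.

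Genes that work with the proteasome but carry other names showed a similar median and more spread. Of 28 measured partners of 29 listed, 24 were above 0, the median log2 fold change was 0.28, and 0 were called, with 2 higher and 1 lower at an unadjusted p under 0.05. Sem1, a small lid subunit, stood at 0.45 (adjusted p 0.235) and Adrm1, a ubiquitin receptor of the cap, at 0.22 with 0.725 per the authors' deposited table. All 10 shuttle and unfoldase genes, which bring ubiquitinated proteins to the proteasome or unfold them, were above 0. Ubb, a polyubiquitin gene, stood at 0.32 (adjusted p 0.603) per the authors' deposited table. The transcription factor Nfe2l1 stood at 0.48 (adjusted p 0.362) and its relative Nfe2l2, of the antioxidant response, at -0.46 with 0.300 per the authors' deposited table. Listed with both for transcription and its processing, Ngly1 stood at 0.26 (adjusted p 0.562) and Ddi2 at 0.03 with 0.972 per the authors' deposited table. The median of these 4 genes was 0.14.

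Ubiquitin ligases known from muscle, which deliver substrates to the proteasome, reached larger values. Of 16 measured, 14 were above 0, 7 were higher at an unadjusted p under 0.05, and 1 was called over all genes, Fbxo32, a ligase of muscle atrophy. With every likelihood ratio divided by its inflation of 1.96 that call was lost and 0 were called. Trim54, a ligase of the sarcomere, stood at 0.93 (adjusted p 0.0654) per the authors' deposited table. The median of the ligases was 0.32, close to the 0.30 of the constitutive subunits, with a range from -0.28 to 1.03.

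**Figure D4:**
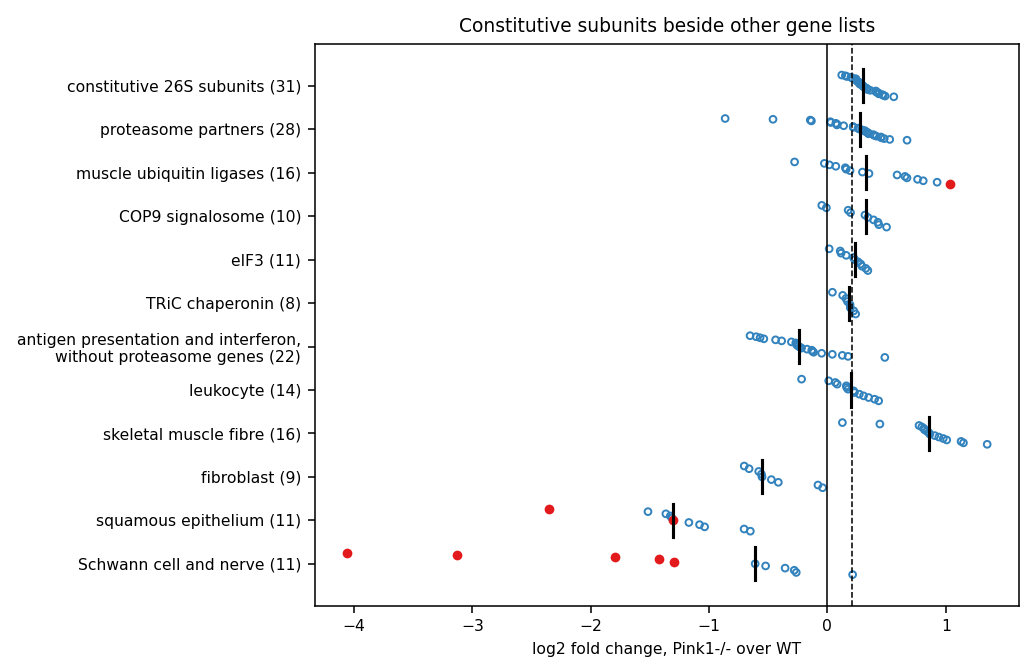
Log2 fold change of Pink1-/- over WT for the constitutive 26S subunits and other gene lists, with the number of measured genes in brackets; open circles are genes not called, filled red circles genes with an adjusted p under 0.05, and black bars list medians. The solid line marks 0 and the dashed line 0.21; the constitutive subunits span 0.12 to 0.56, and the muscle ligases -0.28 to 1.03.

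Markers of the cell types in the sample stood on both sides of 0. All 16 measured markers of skeletal muscle fibres were above 0, with a median of 0.86 and none called, 6 of them at an unadjusted p under 0.05, and their implied levels summed to 62332 CPM in WT and 108090 CPM in Pink1-/-. Each of these markers averaged at least 9.16 log2 CPM, so the defining genes of the labelled tissue were abundant, while Ttn and Tcap were not found among the measured genes. Markers of squamous epithelium had a median of -1.30 over 11 genes and those of fibroblasts -0.55 over 9, with summed levels of 2855 CPM against 1362 CPM and of 3396 CPM against 2454 CPM. Schwann cell and nerve markers had a median of -0.61 over 11 genes, from 595 CPM to 364 CPM in sum. No marker list was wholly at 0. In these bulk samples more cells of a type and more RNA per cell cannot be told apart, and the part of these markers in the values of the proteasome genes was not tested.

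The zero of the fold changes also depends on the scaling between libraries, on which the sources used here are silent. The implied CPM of all genes summed to a total that was larger in Pink1-/- by 0.21 (log2), and scaling to equal sums would lower every log2 fold change by that amount. The constitutive median then became 0.09, or 1.07-fold, and 26 of 31 genes stayed above 0, while 28.6% of all genes did. Psma1, Psma2, Psma3l, Psmb3 and Psmb4 then stood below 0, and no member was called. Relative to the median of all genes, the constitutive subunits stood at 0.32, and relative to genes of like abundance at 0.26. These differences cannot change with the scaling, because it shifts every gene by the same amount.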

How the data were processed

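RNA sequencing of thyroarytenoid muscle from 4 WT and 3 Pink1-/- rats was analysed from the one deposited table, which compares both genotypes. Per the labels' protocols, total RNA came from frozen muscle and libraries from an Illumina TruSeq kit. The submitters' processing notes name RSEM and edgeR 3.9 without saying what each did. The sources used here give no aligner, genome build, annotation, strand setting, filter or scaling. Per the file headers, the columns deposited by the authors are log2 fold change, mean log2 CPM, likelihood ratio (a score), p-value and FDR, which is the adjusted p-value. The deposited p-values match a chi-square test of the likelihood ratio to within a relative 8.29e-13.

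Values per library were not analysed, so depth is unknown, the precision behind a value is known only from the fit, and the planned tests on counts gave way to the authors' own values. The SE of a log2 fold change was its absolute value over the root of its likelihood ratio, with normal intervals at 95%. Implied CPM per genotype assumes libraries of equal size. Genes with an adjusted p under 0.05 are termed called. These steps were tested on data simulated with the implied SEs. That test checks the arithmetic and cannot show whether those SEs are right. All 47 members had a mean log2 CPM of at least 1. RefSeq names copies of 19 members, 52 in all, among which reads could be split, so values of these members are uncertain.

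The members, the 13 other gene lists and the alternatives were chosen with earlier results of these data known. Described singly were the catalytic and immunoproteasome pairs, the extremes of each class, members with an unadjusted p under 0.05, the activators, the inhibitor and, of other lists, called genes and those of smallest p; others were named after their values were seen. Tables and figures were made with Python 3.11.15, pandas 2.3.3, scipy 1.17.1 and matplotlib 3.10.9. Some genes of the other lists are not reported here by name.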

Additional observations from a re-analysis of the deposited data

How the results depend on the processing

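No member was called under equal summed CPM, centring on all genes or on genes of like abundance, likelihood ratios divided by their inflation, a minimum mean log2 CPM of 1 or an adjusted p under 0.1; at an unadjusted p under 0.05, 6 were. The 6 higher members at that p became 0 under equal summed CPM, 7 after centring on all genes, 3 after centring on genes of like abundance and 0 with the inflation removed; the causes were not tested beyond the shift itself. Under equal summed CPM 8 of 47 fold changes changed sign: Psmd5 (-0.151), Psma1 (-0.0117), Psma2 (-0.0463), Psma3l (-0.0592), Psmg1 (-0.0202), Psmb4 (-0.00265), Psmb3 (-0.0896) and Psme3 (-0.185). Psme3 also did (-0.0148) after centring on genes of like abundance. The median of the activators was -0.24 under equal summed CPM and 0.33 without members that have named copies, which leaves Psme4 alone. The constitutive median ranged from 0.09 under equal summed CPM to 0.32 centred on all genes and was 0.32 without members that have named copies. On the forward strand only, 5 member promoters held TGACNNNGC, 14 CCAAT and 4 TTTCNNTTT. Centring on like genes, leaving out copies and the strand choice were added after seeing the data.

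Leaving out rats, another tool, a count filter and a pseudocount were planned for values per library and not run, and no symbol was repeated. No paired analysis was possible because only the comparison was used and the rat numbers are not shared between genotypes. Library depth is unknown.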

Other observations

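Most genes of 3 other large cytosolic complexes also stood above 0 as deposited, with medians from 0.18 to 0.33. The COP9 signalosome, a relative of the 19S lid that switches cullin ubiquitin ligases off, had 8 of 10 genes above 0 and a median log2 fold change of 0.33, with 0 called and 2 higher at an unadjusted p under 0.05. Cops7a and Cops9 stood at 0.50 (adjusted p 0.214) and 0.43 (adjusted p 0.257) per the authors' deposited table. The translation initiation factor eIF3, the other relative of the lid, had all 11 measured genes above 0 and a median of 0.23, with 0 called and 0 at an unadjusted p under 0.05; Eif3d and Eif3k stood at 0.32 and 0.34, each with an adjusted p of 0.434, per the authors' deposited table. The chaperonin TRiC, which folds actin and tubulin, had all 8 genes above 0 and a median of 0.18, with 0 called and 0 at an unadjusted p under 0.05; Cct8 and Cct3 stood at 0.22 and 0.24, with adjusted p-values of 0.653 and 0.656, per the authors' deposited table. Under equal summed CPM the medians of COP9, eIF3 and TRiC became 0.12, 0.02 and -0.03, and 6, 7 and 2 genes stayed above 0. Whether the proteasome differs from these complexes was not tested.

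Endothelial markers had 7 of 10 genes above 0 and a median of 0.24, and adipocyte markers 3 of 7 and a median of -0.71, or 0.19 with a minimum mean log2 CPM of 1; 0 were called in either list, with 1 endothelial gene higher and, among adipocyte genes, 1 higher and 1 lower at an unadjusted p under 0.05. Eng and Egfl7 of the endothelial list stood at 0.59 and 0.45, with adjusted p-values of 0.171 and 0.395, and Fabp4 and Plin1 of the adipocyte list at 0.92 and -1.33, with 0.128 and 0.282, per the authors' deposited table.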
